A study of Mus musculus with 25 samples.

Results

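The comparison set lung macrophages against lung fibroblasts in mice depleted of neutrophils, over all 11867 genes of the deposited lung table. Its members are 6 of the 25 libraries of the series, chosen by their labels for tissue, cell type and genotype: 3 of macrophages and 3 of fibroblasts, here called macrophage and fibroblast libraries 1 to 3. All came from C57BL/6 mice labelled Mrp8_CRE; Rosa26_DTR, in which the promoter of Mrp8, the gene now called S100a8, drives Cre recombinase and the Rosa26 locus carries an allele for the diphtheria toxin receptor. S100a8 is expressed chiefly in neutrophils, but monocytes and their descendants can carry it too, which limits the line as a model of neutrophil loss alone. The control mice were C57BL/6, labelled Mrp8_WT; Rosa26_DTR, and gave another 3 libraries of each cell type. Diphtheria toxin was injected into every mouse, controls included, at 10 µg per kg for 7 days. Interstitial macrophages were sorted by the submitters as live cells with CD45, CD68, F4/80 and high CD11b and without CD11c. Fibroblasts were sorted as live cells with PDGFRA and without CD45, CD31 and EPCAM. No label says that the libraries of a group came from separate animals, so each p-value here reflects the spread among libraries, and that spread may be technical.

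Macrophages are phagocytes of the tissue: they engulf particles and dying cells, degrade them in lysosomes, display the peptides on MHC class II molecules and release cytokines. Interstitial macrophages sit in the walls and around the vessels of the lung, apart from the alveolar macrophages of the air spaces. Fibroblasts build the collagen, elastic and basement membrane matrix that lets the lung stretch and recoil, and send growth factors to epithelium and vessels.

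The 6 libraries held an estimated 124075 to 269602 reads each, and 12.8 to 24.7% of genes per library stood at 0 reads. Values are the deposited signal, which in each library is proportional to the estimated reads plus a small constant, so that a library's lowest value stands for 0 reads. That value was 2.94 to 3.10 in the macrophage libraries and 1.73 to 3.40 in the fibroblast libraries. Signal is not corrected for gene length, so levels are compared between libraries and not between genes. A difference is the mean log2 of signal plus a pseudocount of 1.04 in macrophages minus that in fibroblasts, given with its standard error (SE). Positive values are higher in macrophages, and the scale understates the difference of low genes. Where the lower group holds 3 reads or fewer, the size of the difference rests on the pseudocount. A gene was called where limma, fitted to all genes, gave an adjusted p (Benjamini-Hochberg) under 0.05. In bulk RNA, fewer cells of a type and less RNA per cell cannot be told apart.

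Of 11867 genes, 1479 were called higher in macrophages (12.5%) and 1252 higher in fibroblasts (10.6%), while the median over all genes was -0.06. The median difference of the called genes was 2.43 on the macrophage side and -2.38 on the fibroblast side. The smallest called differences were 0.62 and -0.61. Over all genes, called or not, the macrophage and fibroblast libraries did not overlap in 4465 (37.6%). Of the called genes, 302 had 0 estimated reads in all 3 fibroblast libraries, and 318 had 0 in all 3 macrophage libraries. The split depends on the scaling. As deposited, macrophages hold 54.2% of the calls, but with every library scaled to the same total they held 31.7% (1038 against 2233) and the median of all genes moved to -0.48. Deposited totals ran from 1155987 to 1314479 in macrophages and from 865076 to 951468 in fibroblasts. Cd74 transcripts alone made up 8.28 to 15.5% of the reads in macrophages.

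**Figure D1:**
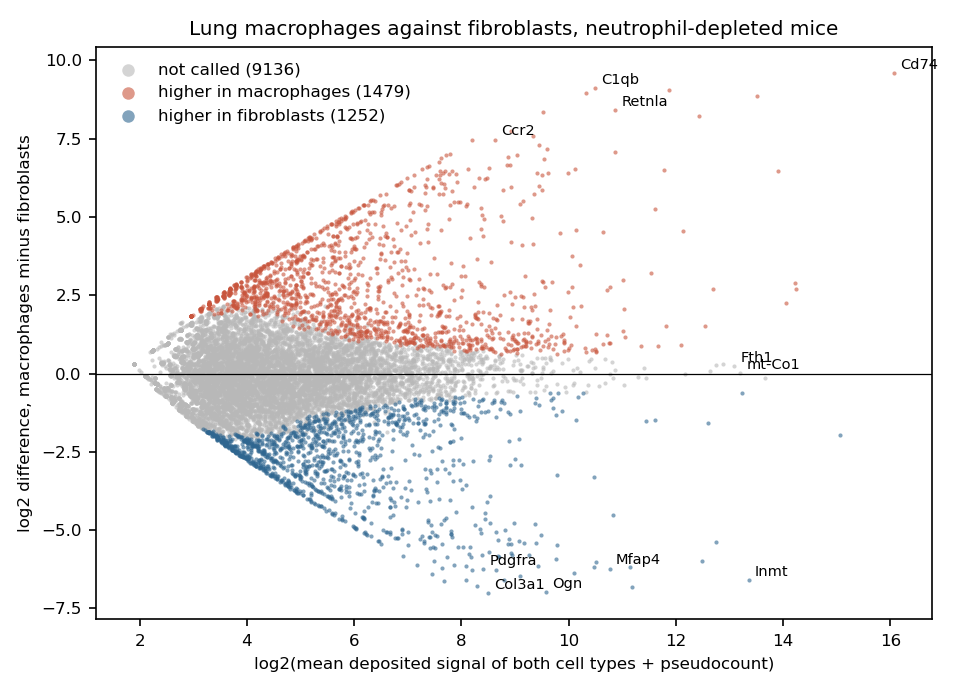
Log2 difference (y axis, macrophages minus fibroblasts, depleted mice) against log2 of the mean deposited signal of both cell types plus the pseudocount (x axis), with 1 point per gene. Red marks the 1479 genes called higher in macrophages, blue the 1252 called higher in fibroblasts and grey the rest; Cd74 is the highest point and Col3a1 the lowest.

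Of the genes behind the sort, Ptprc, Cd68, Adgre1 and Itgam were higher in macrophages and Pdgfra in fibroblasts. Itgax was also called in macrophages, and Pecam1 was not called. The gates select on protein, so RNA differences between the cell types cannot show whether cells met the CD11c or CD31 limits. Ptprc, which encodes CD45, gave 225, 276 and 297 in the macrophage libraries and 3.40, 5.83 and 12.1 in the fibroblast libraries, a difference of 5.17 ± 0.46 (SE). Cd68 (6.39 ± 0.43) and Adgre1, which encodes F4/80 (5.76 ± 0.42), differed as widely. Itgam, which encodes CD11b, was also higher in macrophages (5.16 ± 0.52). Pdgfra gave 9.23, 3.10 and 14.7 in macrophages against 555, 689 and 761 in fibroblasts, with no overlap between the groups. Itgax, which encodes the CD11c that the macrophage gate leaves out, was called higher in macrophages (4.56 ± 0.61) at an estimated 37.0 reads over the 3 libraries and 0 in fibroblasts. Pecam1, which encodes CD31, was not called, at 180, 105 and 159 in macrophages and 171, 199 and 233 in fibroblasts (adjusted p = 0.28). Its difference of -0.47 had a 95% interval of -1.09 to 0.15. With libraries scaled to the same total it was called higher in fibroblasts (-0.92, adjusted p = 0.020). Epcam, an epithelial adhesion gene, stood at an estimated 15 reads in macrophages and 2 in fibroblasts. It was called (2.66 ± 0.71, adjusted p = 0.011), and the call was lost without macrophage library 1 (adjusted p = 0.055) or fibroblast library 1 (0.065) or 3 (0.064). A score of identity genes, macrophage list minus fibroblast list, was 3.43 ± 0.45 (SD, n = 3) in macrophages and -3.04 ± 0.33 (SD, n = 3) in fibroblasts. Its lists hold Cd68, Adgre1 and Pdgfra, genes of the sort, so the score is not independent of the gates.

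Markers of other cell types were present, mostly in the macrophage libraries. For scale, the 16 macrophage identity and lineage genes took 0.532 to 0.588% of the reads there. Of 14 lung epithelial markers measured, 8 were higher in macrophages and none in fibroblasts, and the list took 0.945 to 2.24% of the reads in macrophages and 0.206 to 0.580% in fibroblasts. Sftpc, which encodes surfactant protein C of alveolar type II cells, read 8976, 9163 and 15629 in macrophages and 1113, 1082 and 3818 in fibroblasts (2.71 ± 0.35). Of 8 B and plasma cell markers, 5 were higher in macrophages, led by Igkc at 4.82, and the list took 0.0216 to 0.0631% of their reads. The T and NK cell list (6 measured, 3 called) took 0.0189 to 0.0282%, and of its listed genes Cd2 differed by 4.35. The alveolar macrophage list had 11 of 14 called higher in the macrophages, at 0.581 to 1.04% of their reads. Most of that signal was Chil3 (10381, 10026 and 5510), which the monocyte and alternative activation lists also hold. Siglecf, a defining marker, was not called, at an estimated 9 reads against 3. Of 12 monocyte markers, 9 were higher in macrophages (median 4.18), Ccr2 and Chil3 being on this list, which took 0.753 to 1.34% of their reads. Of 8 dendritic cell markers measured, among them Cd209a, 6 were higher in macrophages, and the list took 0.165 to 0.251%. Among the 12 endothelial markers measured, 4 were higher in macrophages and none in fibroblasts, with a median of 0.78. That list shares Lyve1 with the perivascular resident macrophage list and Car4 with the alveolar macrophage list. The call of its member Tie1 was lost with libraries scaled to the same total (adjusted p = 0.090). Leaving out any macrophage library also ended the Tie1 call (0.065 to 0.102). Of 2 mesothelial markers measured, 1 was called in each direction. Upk1b was higher in fibroblasts, at 936, 548 and 920 against 15.4, 3.10 and 38.3, and Krt19 was higher in macrophages (2.53). The part of these cells in the differences below was not tested. The fibroblast libraries also held some of the most abundant macrophage transcripts, with an estimated 267 reads of Lyz2 and 130.0 of Cd74 over the 3 libraries.

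The 15 largest differences on the macrophage side belonged mostly to MHC class II and complement C1q. Cd74, the invariant chain that escorts MHC class II molecules to the endosome, read 198261, 92622 and 120028 in macrophages and 126, 138 and 268 in fibroblasts, a difference of 9.60 ± 0.27 (adjusted p = 1.8e-13). The macrophage libraries were far apart from the fibroblast libraries and did not overlap them. H2-Eb1, a class II beta chain, read 9235, 5992 and 7332 against 10.2, 17.5 and 12.1 (9.05 ± 0.26). The other class II chains among the 15 were H2-Ab1 (8.86), H2-Aa (8.22) and H2-DMa, a peptide exchange factor (7.59). C1qb, C1qc and C1qa encode the 3 chains of C1q, the recognition molecule of the classical complement pathway. C1qb read 3448, 2030 and 3183 in macrophages against 3.40, 1.94 and 8.63 in fibroblasts, where an estimated 2 reads were found in all. The ratio of estimated reads, corrected for the reads per unit of deposited signal, was 1003. Its exact 95% interval of 277 to 8290 covers counting error only. Retnla, a secreted product of alternatively activated macrophages, followed at 3438, 4144 and 3642 against 10.2, 5.83 and 15.5 (8.42 ± 0.31). Pf4, a chemokine known from platelets and resident macrophages, differed by 7.76, and Ccr2, the receptor that brings monocytes into tissue, by 7.47. Ly86, a partner of an innate immune receptor, had 0 reads in all 3 fibroblast libraries and was at least 134-fold higher in macrophages, with the 3 fibroblast libraries together set to a floor of 3 reads. Cd209a (7.29), Wfdc17 (7.16) and Fcer1g (7.07) completed the 15.

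On the fibroblast side the 15 largest included matrix genes such as Col3a1 and Ogn, enzymes such as Lox, Nox4 and Inmt, and the receptor Pdgfra. Col3a1, which encodes the fibrillar collagen of distensible tissue, read 732, 758 and 649 in fibroblasts and 3.08, 3.10 and 8.83 in macrophages, a difference of -7.01 ± 0.41 (adjusted p = 8.5e-10). An estimated 1 read was found over the 3 macrophage libraries. The ratio of fibroblast to macrophage reads, corrected as for C1qb, was 348, with a counting interval of 62.1 to 13767. Ogn, a small leucine-rich proteoglycan, read 1433, 1424 and 1676 against 9.23, 9.31 and 14.7 (-6.99 ± 0.30). Both genes showed fibroblast libraries far above every macrophage library and close to each other. Lox, the enzyme that starts the cross-linking of collagen and elastin, differed by -6.80, and Serping1, the inhibitor of the C1 proteases, by -6.81. Nox4, a hydrogen peroxide producing oxidase, had 0 reads in macrophages and was at least 65.0-fold higher in fibroblasts. Igfbp3, a carrier of insulin-like growth factors, was at least 57.0-fold higher by the same floor. Inmt, a methyltransferase of small amines that marks lung fibroblasts, read 22293, 18145 and 21905 against 218, 158 and 274 (-6.61 ± 0.20). Spon1, Gpc3, Plpp3, Adh1, Itga8, Dcn, Pdgfra and Mfap4 completed the 15, at -6.61 to -6.23.

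**Figure D2:**
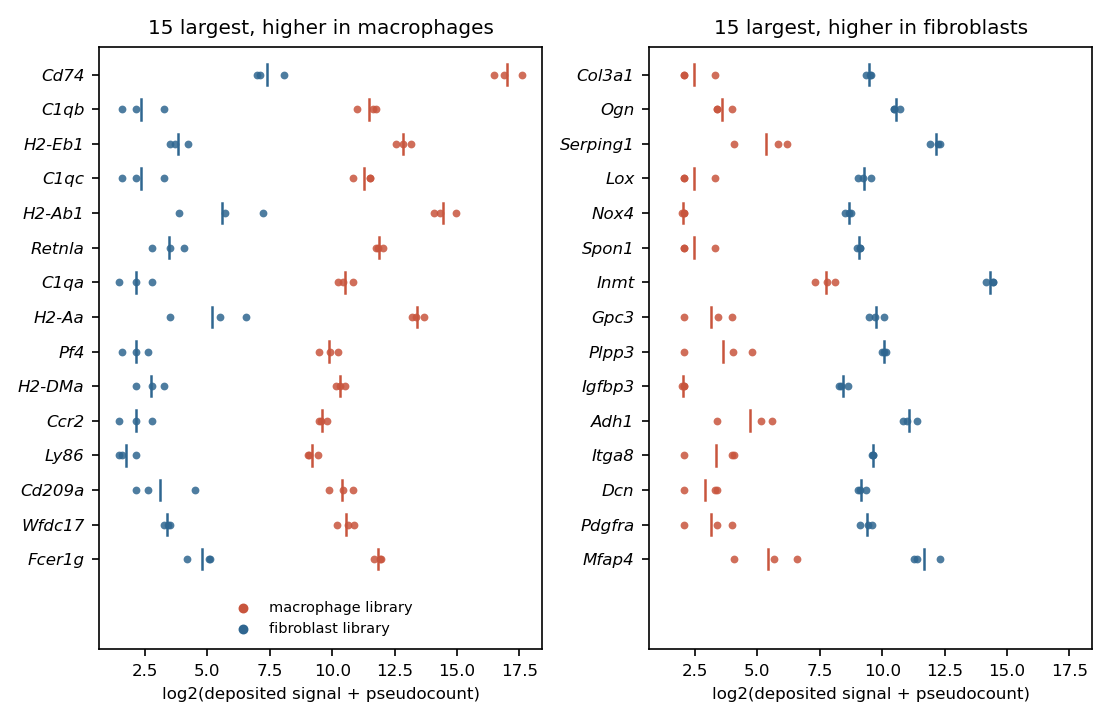
Log2 of deposited signal plus the pseudocount (x axis) in every library of depleted mice for the 15 genes of largest difference in each direction (y axis), with 1 point per library and a bar at the mean of 3. Red points are macrophage and blue points fibroblast libraries. In these 30 genes, picked for their large called differences, the groups do not overlap, as in 37.6% of all genes.

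Promoters are shown for the 3 genes of largest difference in each direction that have an entry among the RefSeq promoters of GRCm38.p6, because these genes define the contrast most sharply. Each runs from 250 bases before to 50 bases after the annotated start, read on the gene's strand. Capitals mark a match on either strand to any of 5 motifs. They are the PU.1 site, searched as GAGGAAGT, and the AP-1 site, searched as TGANTCA. The TATA box was searched as TATAAA. The box bound by NF-Y was searched as CCAAT. The E-box was searched as CACGTG. C1qb lies at chr4:136886151-136886450 (minus strand), H2-Eb1 at chr17:34305617-34305916 (plus), C1qc at chr4:136892865-136893164 (minus), Col3a1 at chr1:45311288-45311587 (plus), Ogn at chr13:49607765-49608064 (plus) and Nox4 at chr7:87246399-87246698 (plus).
C1qb: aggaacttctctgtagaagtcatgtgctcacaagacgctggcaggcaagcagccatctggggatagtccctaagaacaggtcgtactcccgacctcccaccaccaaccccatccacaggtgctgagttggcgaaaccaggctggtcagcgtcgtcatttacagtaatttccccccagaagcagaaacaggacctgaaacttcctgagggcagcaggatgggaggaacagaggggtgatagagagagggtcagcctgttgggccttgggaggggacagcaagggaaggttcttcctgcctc
H2-Eb1: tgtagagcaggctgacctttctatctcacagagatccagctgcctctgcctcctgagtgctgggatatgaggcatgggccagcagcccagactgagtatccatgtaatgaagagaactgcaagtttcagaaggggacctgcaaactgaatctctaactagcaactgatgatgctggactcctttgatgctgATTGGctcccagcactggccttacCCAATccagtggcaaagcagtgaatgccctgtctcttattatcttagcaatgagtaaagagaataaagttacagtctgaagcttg
C1qc: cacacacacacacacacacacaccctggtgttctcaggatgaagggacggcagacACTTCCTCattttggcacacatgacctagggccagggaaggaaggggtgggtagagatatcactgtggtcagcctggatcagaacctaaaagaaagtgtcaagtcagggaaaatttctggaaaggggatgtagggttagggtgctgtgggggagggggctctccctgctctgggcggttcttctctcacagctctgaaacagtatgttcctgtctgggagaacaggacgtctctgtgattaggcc
Col3a1: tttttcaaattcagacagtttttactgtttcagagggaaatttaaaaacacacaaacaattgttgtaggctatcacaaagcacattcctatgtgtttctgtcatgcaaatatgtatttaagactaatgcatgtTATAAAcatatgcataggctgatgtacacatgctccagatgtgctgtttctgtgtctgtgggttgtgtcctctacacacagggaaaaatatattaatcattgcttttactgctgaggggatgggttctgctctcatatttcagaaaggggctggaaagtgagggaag
Ogn: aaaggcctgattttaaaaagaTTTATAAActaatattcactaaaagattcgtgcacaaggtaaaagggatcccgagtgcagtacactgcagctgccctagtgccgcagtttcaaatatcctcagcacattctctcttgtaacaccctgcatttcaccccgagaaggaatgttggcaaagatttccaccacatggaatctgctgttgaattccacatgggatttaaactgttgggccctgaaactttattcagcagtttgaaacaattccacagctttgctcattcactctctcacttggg
Nox4: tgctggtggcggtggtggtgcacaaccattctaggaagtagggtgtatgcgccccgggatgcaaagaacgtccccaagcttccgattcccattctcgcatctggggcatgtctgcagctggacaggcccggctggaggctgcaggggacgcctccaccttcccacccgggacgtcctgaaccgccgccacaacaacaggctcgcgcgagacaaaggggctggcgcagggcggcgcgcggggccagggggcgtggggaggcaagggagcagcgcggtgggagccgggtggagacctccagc

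The windows differ in their letters. C1qc holds a PU.1 match that begins 195 bases before its start. PU.1 is the myeloid factor encoded by Spi1, itself higher in macrophages at 409, 252 and 262 against 17.0, 9.72 and 1.73. That match is found in 3.28% of 27025 promoters of this length. H2-Eb1 has CCAAT matches that begin 59 and 35 bases before the start, the farther one reading ATTGG; 37.9% of promoters hold such a match. Col3a1 has TATAAA beginning 117 bases before its start, and Ogn has overlapping TATA matches on both strands from 229 bases before, where 14.2% of promoters hold the motif. C1qb and Nox4 hold none of the 5 motifs. AP-1 and E-box matches, in 7.93 and 7.24% of promoters, were absent from all 6 windows. GC content was 68.3% in Nox4, with 24 CpG dinucleotides, and 37.7% in Col3a1, with none, beside a median of 52.7% over all promoters. Only 77.9% of the genes higher in macrophages and 74.1% of those higher in fibroblasts had an entry, under the 80% set for such a check, so motif shares were not compared between the directions.

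Genes that identify macrophages were higher as a group. Of 16 identity and lineage genes, 14 were called in macrophages and none in fibroblasts, with a median of 4.99 beside -0.06 for all genes. Genes with 0 reads in a group enter such medians at their fitted value, and at their bound the median of this list was 4.83. Tyrobp, the signalling adaptor shared by many myeloid receptors, read 1683, 2070.04 and 2235 against 17.0, 29.1 and 22.4. Cd14, a coreceptor for bacterial lipopolysaccharide, differed by 5.73 ± 0.32. All 19 measured receptors with immunoreceptor motifs and their adaptors were higher in macrophages, with a median of 4.41. Fcer1g, the common gamma chain of Fc receptors, differed by 7.07 and Fcgr3, an activating Fc receptor, by 6.54. Fcgr2b, the inhibitory Fc receptor, differed by 5.94 in the same direction. Of 20 leukocyte cytoskeleton and signalling genes, 19 were called, among them Cd53 (6.34), Cd52 (6.86) and Arhgdib (6.00).

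The machinery for uptake, killing and degradation moved with them. Of 17 C1q and phagocytic receptor genes, 15 were higher in macrophages, among them Itgb2, the integrin beta chain of complement receptor 3, at 341, 313 and 309 against 3.40, 1.94 and 5.18. The opposite direction was held by Gas6, the bridging ligand that links dying cells to phagocyte receptors, at 46.1, 59.0 and 38.3 against 85.1, 150 and 129. Its call (-1.31 ± 0.36, adjusted p = 0.014) was lost without fibroblast library 2 (adjusted p = 0.081) or 3 (0.062). All 7 genes of the phagocyte NADPH oxidase, which makes superoxide, were called in macrophages. Cybb, the catalytic subunit, differed by 5.29 ± 0.32, and Ncf4, a cytosolic subunit with 0 reads in fibroblasts, was at least 49.7-fold higher. Cyba, the partner of several oxidases, showed the fibroblast libraries well above zero, at 310, 532 and 540 against 2834, 2987 and 3283.

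Lysosomal genes were split. Of 24 measured, 19 were higher in macrophages and 2 in fibroblasts, with a median of 2.24. Lyz2, lysozyme, read 29530, 30122 and 31779 against 234, 321 and 525 (6.48 ± 0.23), and Ctss, the protease that trims the invariant chain, differed by 6.49 ± 0.24. Ctsl, a related cathepsin, ran the other way at 21.5, 77.6 and 32.2 in macrophages and 269, 262 and 168 in fibroblasts (-2.56 ± 0.42). Cd63, a tetraspanin of late endosomes, was also higher in fibroblasts (-0.77 ± 0.23, adjusted p = 0.024), a call lost without fibroblast library 1 (0.069), 2 (0.115) or 3 (0.098) or macrophage library 2 (0.13). Reads of Lyz2 may include its close copy Lyz1, and reads of the H2 genes may be shared among them, since the counting could split near-identical copies.

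Antigen presentation separated by class. All 13 class II genes measured were higher in macrophages, with a median of 6.49, the highest of the lists that held 10 or more measured genes. Of 14 class I genes, 7 were called in macrophages and none in fibroblasts, with a median of 1.42 and 2 intervals wholly within 1 of 0. B2m, the light chain of class I, read 7946, 9279 and 9335 in macrophages against 2924, 2668 and 3665 in fibroblasts (1.53 ± 0.17), so the fibroblasts carried it at high signal. Psmb8, an immunoproteasome subunit, differed more widely (3.43 ± 0.28).

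Inflammatory mediators lay mainly with the macrophages. Of 13 chemokine genes listed for macrophages, 12 were called, including Ccl6 at 6467, 6420 and 5446 against 133, 154 and 195 (5.26 ± 0.20), Ccl9 (6.26) and Ccl7 (5.07). Of 8 genes of the interleukin 1 family, 6 were higher in macrophages, led by Il1b at 477, 270 and 339 against 3.40, 1.94 and 5.18. Il1rn, the receptor antagonist, and Il18 each differed by 4.32. Of 14 genes of tumour necrosis factor and NF-kappa-B feedback, 10 were higher in macrophages and none in fibroblasts; Nfkbia, the inhibitor that NF-kappa-B induces, read 994, 884 and 997 against 167, 169 and 188. In the eicosanoid list (13 measured, 7 and 2 called) the leukotriene genes Alox5ap (6.41 ± 0.35) and Ltc4s (4.17 ± 0.50) were higher in macrophages. The prostaglandin synthases Ptgis, which makes prostacyclin, and Ptges, which makes prostaglandin E, were higher in fibroblasts (-3.94 ± 0.42 and -2.81 ± 0.67).

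Genes of resident and alternatively activated macrophages were high as well. Of 16 perivascular resident macrophage genes, 13 were called in macrophages, with Mrc1, the mannose receptor, and Folr2, a folate receptor, at 0 fibroblast reads and at least 57.0-fold and 52.5-fold higher. Fgfr1, a growth factor receptor that the list also holds, was higher in fibroblasts (-2.66 ± 0.49), as was Gas6. Of 11 alternative activation genes, 9 were higher in macrophages; Chil3, a chitinase-like protein, read 10381, 10026 and 5510 against 267, 387 and 417. Tgm2, a transglutaminase, was called higher in fibroblasts (-2.14 ± 0.45), a call lost without fibroblast library 1 (adjusted p = 0.055). Of 14 lipid handling genes, 7 were called in macrophages, among them Abcg1, a cholesterol exporter (4.53 ± 0.33). Nr1h3, the oxysterol receptor that induces such exporters, was called the other way, at 27.7, 27.9 and 8.83 against 119, 81.7 and 60.4, a call lost without fibroblast library 1 (adjusted p = 0.080). Iron genes followed the macrophages in 6 of 9 cases, including Ftl1, the ferritin light chain, at 30911, 23257 and 29811 against 5824, 5286 and 6401. Slc40a1, the iron exporter, was called higher in fibroblasts (-2.08 ± 0.67, adjusted p = 0.032). That call was lost without fibroblast library 1 (0.188), 2 (0.165) or 3 (0.107) or macrophage library 3 (0.12). It was also lost after quantile normalisation (0.098) and without the variance trend (0.091).

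**Figure D3:**
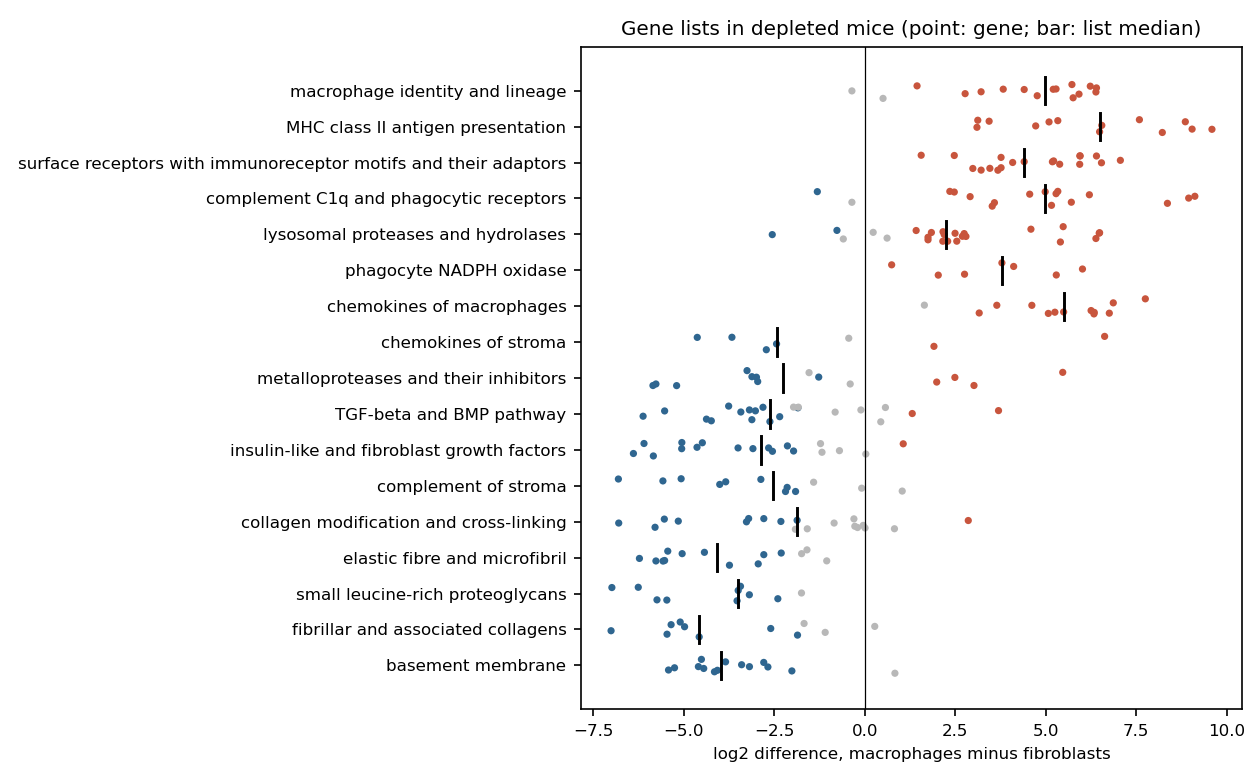
Log2 difference (x axis, macrophages minus fibroblasts, depleted mice) of every measured gene in 17 lists (y axis), with a black bar at the list median. Red points were called higher in macrophages, blue points higher in fibroblasts and grey points neither; all 13 MHC class II genes are red, and 13 of 14 basement membrane genes are blue.

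Matrix genes formed the fibroblast side. Of 11 fibrillar and associated collagens, 8 were called in fibroblasts and none in macrophages, with a median of -4.58. Col1a2, a chain of type I collagen, read 714, 691 and 473 against 15.4, 15.5 and 26.5 (-4.98 ± 0.33). Col6a1 and Col6a2, chains of the beaded filament collagen, followed at -5.46 and -5.35. Of 14 basement membrane genes, 13 were higher in fibroblasts, with a median of -3.96 (-3.54 with bounds). Npnt, an integrin ligand, read 1345, 1450 and 1124 against 27.7, 27.9 and 32.4, and Sparc, a collagen-binding glycoprotein, 4076, 3364 and 3051 against 151, 152 and 150. In both genes the macrophage libraries were level with each other and far below every fibroblast library.

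Small proteoglycans, elastic fibre genes and matricellular proteins showed the same direction. Of 10 small leucine-rich proteoglycans, 9 were called in fibroblasts (median -3.51), with Bgn at -5.47 and Prelp at -5.74 beside Ogn and Dcn. Of 14 elastic fibre and microfibril genes, 11 were called in fibroblasts (median -4.08). Mfap4, a microfibril protein, read 5146, 2484 and 2677 against 95.4, 15.5 and 50.1. Timp3, a matrix-bound metalloprotease inhibitor, differed by -5.77 ± 0.34. Of 13 matricellular and adhesive glycoproteins, 10 were called in fibroblasts, among them Mgp, the calcification inhibitor, at 2381, 3358 and 2623 against 33.8, 40.3 and 38.3.

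Enzymes that build and cut matrix did not all follow. Of 19 collagen modification genes, 9 were higher in fibroblasts, 1 was higher in macrophages and 9 were not called, with a median of -1.87 (-1.09 with bounds). Serpinh1, the collagen chaperone, read 1282, 849 and 734 against 40.0, 3.10 and 26.5. Pcolce and Pcolce2, enhancers of procollagen processing, differed by -5.15 and -5.54. Colgalt1, a collagen galactosyltransferase, was the exception at 64.6, 46.5 and 55.9 in macrophages and 3.40, 9.72 and 8.63 in fibroblasts (2.86 ± 0.58, adjusted p = 0.0015). Of 14 metalloproteases and inhibitors, 8 were higher in fibroblasts and 4 in macrophages. Mmp3 and Mmp2 stood with the fibroblasts, at -5.85 ± 0.55 and at least 25.8-fold. Mmp12, the macrophage elastase, stood with the macrophages at 618, 382 and 433 against 10.2, 9.72 and 8.67 (5.47 ± 0.36). Mmp8, a collagenase of neutrophils that the neutrophil list also holds, was higher in macrophages (3.02 ± 0.67) at an estimated 23 reads against 2. Corrected for the reads per unit of deposited signal, the Mmp8 ratio was 16.2, with a counting interval of 3.99 to 141.

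Fibroblast identity genes included members that went the other way. Of 12 measured, 7 were higher in fibroblasts and 2 in macrophages. Cdh11, a mesenchymal cadherin, had 0 reads in macrophages and was at least 23.1-fold higher in fibroblasts. S100a4, often used to mark fibroblasts, read 64.6, 139 and 87.8 in macrophages against 3.40, 9.72 and 12.1 in fibroblasts (3.45 ± 0.56). Vim, an intermediate filament gene of mesenchymal and many blood cells, was also higher in macrophages (1.04 ± 0.22, adjusted p = 0.0020). It was no longer called with libraries scaled to the same total (adjusted p = 0.057) or quantile normalised (0.073). Of 18 lung mesenchyme transcription factors, 10 were called in fibroblasts and none in macrophages. Nr2f2 read 700, 708 and 741 against 27.7, 27.9 and 20.6, and Tcf21, a factor of lung fibroblast lineages, differed by -5.00 ± 0.51. The retinoid and lipofibroblast list divided, with 5 of 11 higher in fibroblasts and 4 in macrophages. Aldh1a1, which oxidises retinoids, was on the fibroblast side (-4.77), while Plin2, a lipid droplet coat protein, and Lpl, lipoprotein lipase, were on the macrophage side (2.22 and 1.97). Of 9 genes called among stromal complement components, all were higher in fibroblasts, including C7 (-5.58) and the protease gene C1s1 (-5.07), so that C1q and its partner protease lay on opposite sides. Of 10 contractile genes, 5 were called in fibroblasts, among them Cald1, which binds actin (-5.78). Of 12 genes of caveolae and adhesion, 5 were called in fibroblasts, among them Cavin1, a coat protein of caveolae (-3.18), and 1 in macrophages, the tetraspanin Cd9 (2.91).

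For the CSF1 axis, which keeps macrophages alive, the receptor Csf1r read 378, 245 and 415 in macrophages against 3.40, 1.94 and 12.1 in fibroblasts (5.92 ± 0.52). Csf2ra and Csf2rb, the receptor chains for granulocyte-macrophage colony stimulating factor, differed by 5.25 and 4.77. These 3 receptors belong to a list of 8 genes with the PDGF pathway, in which Pdgfra was higher in fibroblasts and Csf1, Pdgfa, Pdgfb and Pdgfrb were not called. Of 21 genes of the TGF-beta and BMP pathway, 13 were higher in fibroblasts and 2 in macrophages, with a median of -2.62 (-1.92 with bounds). Tgfbr3, a coreceptor, had 0 reads in macrophages and was at least 45.8-fold higher in fibroblasts. The latency proteins Ltbp4 (-5.53) and Ltbp1 (-3.42) store TGF-beta in the matrix. Tgfbi, a secreted product that TGF-beta induces, was higher in macrophages at 298, 357 and 344 against 23.8, 21.4 and 29.4. Tgfbr1, the signalling receptor, was the other (1.31 ± 0.38, adjusted p = 0.019), a call lost without fibroblast library 1 (0.079) or 3 (0.060) or macrophage library 3 (0.094). The Tgfbr1 call was also lost with libraries scaled to the same total (0.11) and without the variance trend (0.072).

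WNT and Hedgehog genes were called in fibroblasts in 9 of 13 cases and in macrophages in none, with a median of -2.96 (-2.33 with bounds). Wnt2, a ligand for lung epithelium, and Axin2, a WNT target, had 0 reads in macrophages and were at least 9.01-fold and 4.74-fold higher in fibroblasts. Dkk3, a secreted modulator, differed by -4.47. Of 18 insulin-like and fibroblast growth factor genes, 13 were higher in fibroblasts. Fgf7, a growth factor for epithelium, read 214, 212 and 279 in fibroblasts with 0 reads in macrophages, at least 39.2-fold higher. Vegfd, a lymphatic growth factor, differed by -6.10. Igf1 was called in macrophages at 243, 139.6 and 222 against 85.1, 75.2 and 126 (1.06 ± 0.32, adjusted p = 0.023). The Igf1 call was lost without fibroblast library 1 or 2 (0.106 each) or macrophage library 1 (0.089) or 3 (0.081), and under scaling to the same total (0.154).

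The chemokines listed for stroma went both ways. Cxcl14 (-4.63), Cxcl12 (-2.72) and Ccl11, with at least 7.83-fold, were higher in fibroblasts. Cxcl13, which draws B cells, read 378, 276 and 339 in macrophages with 0 reads in fibroblasts, at least 75.9-fold higher. Cxcl1 was called in macrophages at an estimated 11 reads against 3 (1.91 ± 0.67, adjusted p = 0.049). Leaving out any library other than macrophage library 2 ended the Cxcl1 call, with adjusted p between 0.057 and 0.154.

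Abundant genes shared by both cell types could be named where the 95% interval of the difference lay wholly within 1 of 0, so that a 2-fold difference was outside it. Such intervals were found for 545 genes (4.59%), a count limited by depth. Of the 13 mitochondrially encoded genes, 11 were within 1 as deposited, with a median difference of -0.14. That median was -0.60 with libraries scaled to the same total and -0.73 after quantile normalisation. The 13 genes took 3.10 to 4.94% of the reads in macrophages and 5.81 to 6.72% in fibroblasts, with no overlap. mt-Co1, a subunit of cytochrome oxidase, read 6882, 10429.6 and 11327 in macrophages and 7944, 9555 and 10203 in fibroblasts (0.02 ± 0.19). mt-Cytb was both within 1 and called higher in fibroblasts, at 6637, 7255 and 8643 against 10552, 10804 and 13614 (-0.63 ± 0.16, adjusted p = 0.0085). The call was lost without fibroblast library 2 (0.056) or 3 (0.051). Fth1, the ferritin heavy chain, read 10479.8, 8301 and 9592 against 7994, 7430 and 8610 (0.24 ± 0.15), with groups that overlapped, while its light chain Ftl1 differed by 2.25. Cst3, a secreted cathepsin inhibitor, differed by 0.31 ± 0.16 as deposited and was called higher in fibroblasts (-0.45) after quantile normalisation. Ubb (0.27), Tmsb10 (0.17), mt-Atp6 (-0.14), mt-Co3 (0.10), mt-Co2 (-0.01) and mt-Nd1 (-0.15) were the other genes of highest signal in this class.

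In control mice the same contrast called 1453 genes in macrophages (12.2%) and 1305 in fibroblasts (11%). Of the 1479 macrophage calls in depleted mice 1066 were shared, 72.1% of them and 73.4% of the control calls. Of the 1252 fibroblast calls 848 were shared, 67.7% and 65.0%. Across genes, which are not independent replicates, the differences in the 2 genotypes correlated at a Pearson's r of 0.846, from libraries that the comparisons do not share. The difference between the contrasts was tested as an interaction over all 12 lung libraries. Smaller and larger refer here to the signed difference, macrophages minus fibroblasts, and not to its size. The interaction called 2 genes as smaller in depleted mice (0.0169%) and 0 as larger, with 653 genes (5.50%) at an unadjusted p below 0.05. By voom on recovered reads the counts were 1 and 0.

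G0s2, an inhibitor of triglyceride lipase that is abundant in neutrophils, was the only gene of 11867 called in opposite directions in the 2 genotypes. In depleted mice it read 114, 83.8 and 85.4 in macrophages and 371, 286 and 575 in fibroblasts, higher in fibroblasts by 2.06 on the log2 scale (-2.06 ± 0.30). In control mice it read 711, 676 and 1036 in macrophages and 385, 402 and 258 in fibroblasts (1.21, adjusted p = 0.0022). The macrophage libraries of the 2 genotypes did not overlap, and the fibroblast libraries did. The interaction was -3.27 ± 0.41 (adjusted p = 9.7e-05), and the call was lost without the variance trend (0.246). G0s2 lies at chr1:193272161-193273217 on the minus strand of GRCm38.

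Ptgs2, the inducible cyclooxygenase, was the other gene. It read 21.5, 27.9 and 8.83 in depleted macrophages against 3.40, 5.83 and 12.1 in fibroblasts, a difference of 1.34 that was not called. In control mice it read 396, 268 and 377 against 2.73, 2.89 and 5.35, a called difference of 6.23. These fibroblast values lie at or near those that stand for 0 reads. The sizes of that difference and of the interaction therefore rest on the pseudocount. The interaction was -4.90 ± 0.85 (adjusted p = 0.018). It was lost without control macrophage library 1 (adjusted p = 0.126), 2 (0.067) or 3 (0.182), depleted macrophage library 3 (0.066) or depleted fibroblast library 3 (0.098). The call was also lost with no further pseudocount (0.053), with voom (0.060), after quantile normalisation (0.090) and without the variance trend (0.122). Among the genes next in rank, Retnlg (-2.75 ± 0.55, adjusted p = 0.098), Cxcr2 (-3.46, 0.098), Il1b (-2.78, 0.108) and Stk17b (-2.80, 0.108) did not pass. Retnlg, Cxcr2 and Il1b did pass with 10 times the pseudocount, and also without depleted fibroblast library 2.

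**Figure D4:**
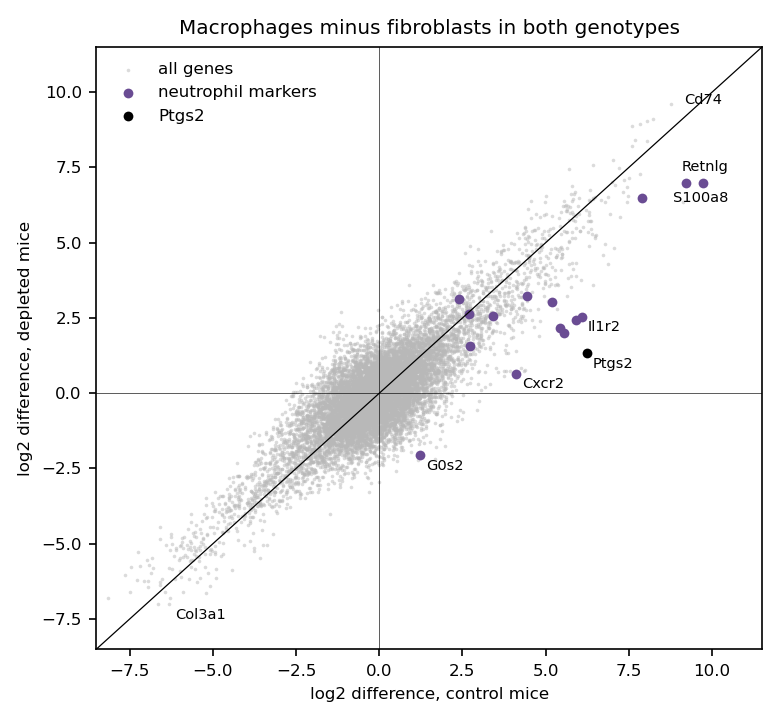
Log2 difference, macrophages minus fibroblasts, in depleted mice (y axis) against control mice (x axis), with 1 grey point per gene, the 15 measured neutrophil markers in purple, Ptgs2 in black and the line of equal differences. G0s2 is the purple point below 0 on the y axis (-2.06) and above 0 on the x axis (1.21).

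Neutrophil markers were still higher in the macrophage libraries of depleted mice. Of 15 measured, 12 were called in macrophages and 1, G0s2, in fibroblasts, with a median of 2.58 against 5.18 in control mice. The median interaction of the list was -2.23, and only G0s2 passed in the main fit. With 10 times the pseudocount Retnlg (adjusted p = 1.9e-04), Il1r2 (0.0026), Cxcr2 (0.0033) and Hdc (0.040) passed as well. Without depleted fibroblast library 2, Retnlg (0.043), Il1r2 (0.030) and Cxcr2 (0.030) did so too. S100a8, whose promoter drives the Cre, read 895, 1052 and 1175 in depleted macrophages and 10.2, 1.94 and 15.5 in depleted fibroblasts (6.98 ± 0.48). In control macrophages it read 5155, 3741 and 10656. Its partner S100a9 differed by 6.48 ± 0.52 and Retnlg, a resistin-like gene of neutrophils, was at least 95.9-fold higher with 0 reads in fibroblasts. Cxcr2, the chemokine receptor that draws neutrophils into tissue, was not called, at 40.0, 15.6 and 61.9 against 29.9, 12.4 and 26.0. Ly6g, which defines mouse neutrophils, stood at an estimated 13 reads in macrophages and 1.25 in fibroblasts. Its call (2.64 ± 0.69, adjusted p = 0.0096) was lost without fibroblast library 3 (0.053). The list took 0.173 to 0.204% of reads in depleted macrophages, 0.897 to 1.83% in control macrophages and 0.0382 to 0.0683% in depleted fibroblasts, where 6 of the 15 were at 0. The part of neutrophil transcripts in the interactions of G0s2 and Ptgs2 was not tested.

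**Figure D5:**
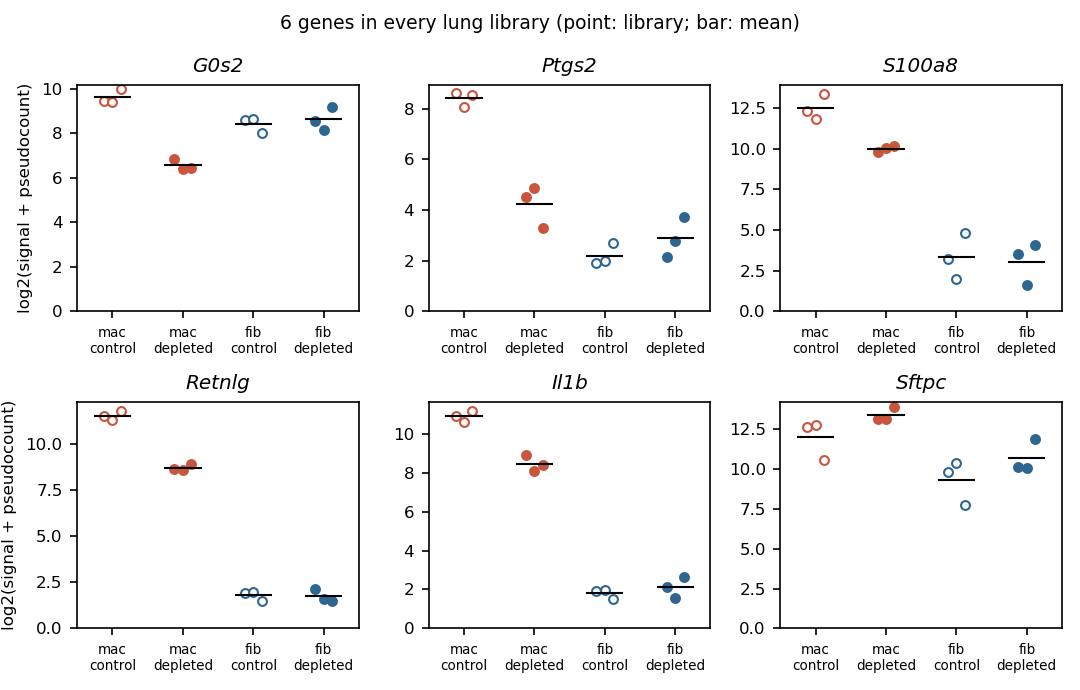
Log2 of deposited signal plus the pseudocount (y axis) for 6 genes in all 12 lung libraries by group (x axis), with open points for control and filled points for depleted mice, red for macrophages, blue for fibroblasts and a bar at the mean of 3. G0s2 and Ptgs2 are the genes whose interaction passed; in S100a8, Retnlg, Il1b and Sftpc the macrophage libraries of depleted mice lie above the fibroblast libraries.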

How the data were processed

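Total RNA of sorted lung cells was amplified and sequenced by the submitters, per the labels' protocols. The authors deposited 1 table of normalised signal for the 12 lung libraries. The submitters' processing notes name CASAVA 1.8, cutadapt 1.7.1, RSEM 1.7.1 and limma 3.46 with the mm10 build, in no stated role, and the normalisation method is not given in the sources used here. Within each library the deposited signal is spaced as reads plus 0.5 times a constant. Estimated reads came out whole, within 0.01, for 72.7 to 82.2% of values, so a count test was not used as a result.

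Log2 of signal plus 1.04173, a pseudocount scaled to the mean library total, was compared with limma 3.58.1 in R 4.3.3 (variance trend, two-sided, Benjamini-Hochberg over 11867 genes). The fit used the 6 libraries of depleted mice alone, and the difference between genotypes used all 12. The procedure was tested on simulated data. Counting intervals are exact (Clopper-Pearson, 95%), and floors use 3 reads over the group; both cover counting error only, since the reads carry no molecular identifiers.

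The members, the gene lists and the rule for named genes were chosen with earlier results of these data known, and lists have no test. Named genes were drawn, not exhaustively, from the 15 largest called differences in each direction, up to 4 called members of each list by p, up to 2 against the list's median, the genes of the sort, the 10 lowest p of the interaction in each direction and the 10 most abundant genes within 1. Other members, such as Spi1, were chosen after their values were seen. Symbols and coordinates come from GENCODE M21 (GRCm38), and 38 genes had no symbol. Near-identical copies (Lyz1 and Lyz2, H2 genes, Ear1 and Ear2) and overlapping or antisense genes are uncertain, since strand was not stated. Alternatives were other pseudocounts, scalings, variance models, filters and thresholds, a replicate block, and leaving out each library.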

Additional observations from a re-analysis of the deposited data

Results flagged for a closer look

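G0s2 had a cell type difference that differed between the genotypes by -3.27 on the log2 scale, in a test of that difference over 12 lung libraries (limma, adjusted p = 9.7e-05). Its difference was -2.06 in depleted mice and 1.21 in control mice.

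Ptgs2 was picked out by the same test, with a difference between genotypes of -4.90 (limma, adjusted p = 0.018). Its difference was 1.34 in depleted mice and 6.23 in control mice. The size in control mice, and with it the difference between genotypes, rests on the pseudocount. No library was tested for standing apart within its group, since each group held 3.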

How the results depend on the processing

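With libraries scaled to the same total, 2233 genes were higher in fibroblasts in depleted mice. At an adjusted p below 0.01 the counts were 971 and 745 in depleted mice and 812 for fibroblasts in control mice. A filter at 5 reads on average left 814 control genes higher in fibroblasts, among fewer genes tested. Leaving out 1 library gave 1106 to 1290 genes in macrophages and 855 to 1115 in fibroblasts. The interaction called 0 to 1 genes as larger without 1 library, the 1 arising without control macrophage library 2. It called 1 to 6 as smaller, the 6 arising without depleted fibroblast library 2. As smaller it called 12 with 10 times the pseudocount, 1 with none, under quantile normalisation, with voom or at an adjusted p below 0.01, and 0 without the variance trend. Intervals within 1 numbered 98 without the trend, 3195 with 10 times the pseudocount and 353 to 409 without 1 library. Cst3 reversed under quantile normalisation (-0.45, adjusted p = 0.041). The cause of these changes was not tested. Of 239 named genes called in depleted mice, 204 were called under every alternative that tested them and 35 were lost under at least 1. Named genes were picked largely by size or p in the main fit, so these counts are no guide to all calls. Whether same-numbered libraries are paired is not known. Deviations of same-numbered and other libraries correlated at -0.028 to 0.029 over 4815 genes, but counting noise at this depth could hide a pairing. With a replicate block, 1631 and 1395 genes were called in depleted mice, 1403 and 1282 in control mice, and 0 and 2 in the interaction. The planned comparison of promoter shares was not run, because too few called genes have a promoter entry. Depth, with up to 24.7% of genes at 0 reads in a library, limits the smaller differences.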

Other observations

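Several programs common to most cells also differed between the macrophages and fibroblasts of depleted mice. Of 17 glycolysis genes, 10 were called in macrophages, among them Eno1 (2.12 ± 0.24) and Gpi1 (2.71 ± 0.34), and 1 in fibroblasts, Pfkfb3, which makes an activator of glycolysis (-1.92 ± 0.54). The Pfkfb3 call was lost without fibroblast library 2 (adjusted p = 0.102) or 3 (0.107). Of 28 cytosolic ribosomal protein genes, 21 were called in macrophages, with a median of 0.83 that was 0.37 with libraries scaled to the same total and 0.42 after quantile normalisation. In control mice 5 of the 28 were called, with a median of 0.53, and the interaction called 0 of them. Clock genes stood on the other side: 4 of 11 were called in fibroblasts, including Nr1d1, a repressor of the clock loop, at 153, 215 and 161 against 15.4, 21.7 and 8.83. The median of the 11 was -1.72. Hlf, a clock output factor, had 0 reads in macrophages and was at least 7.35-fold higher in fibroblasts.

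Of 12 heat shock genes, 3 were called in macrophages and 2 in fibroblasts, beside 12.5% and 10.6% of all genes. The list was not tested against those shares, and its counts are small. The macrophage calls of Hspa8 (0.93) and Hspe1 (1.02) were lost with libraries scaled to the same total (adjusted p = 0.125 and 0.191). Hspb1, a small heat shock protein, read 283, 375 and 262 in fibroblasts against 9.23, 9.31 and 2.94 in macrophages, and Cryab differed by -3.67 ± 0.40 in the same direction. Of 20 immediate-early genes, which respond within minutes to stimuli and to tissue dissociation, 7 were called in macrophages, beside 12.5% of all genes. Among them were Atf3 (2.27 ± 0.38) and Fos (1.27 ± 0.21). The Fos call was lost without the variance trend (adjusted p = 0.065). Dusp1 and Zfp36, also called, lost their calls after quantile normalisation (0.519 and 0.17). Dusp1 lost its call with libraries scaled to the same total as well (0.164). Of 20 interferon-stimulated genes, 6 were called in macrophages and none in fibroblasts, beside 12.5% and 10.6% of all genes. Irf7, among the 6, read 58.4, 71.4 and 91.3 against 23.8, 25.3 and 8.63.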
